A study of Mus musculus with 12 samples.

Results

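Mouse cells sorted as cardiac progenitors on day 4 of differentiation were compared with the unsorted cardiac culture of the same day. The comparison used 6 of the 12 arrays in the series, chosen by their titles. The 3 libraries labelled sorted CPC (cardiac progenitor cells) came from a population enriched by fluorescence-activated cell sorting, with FLK1+/PDGFRα+ given as its gate. The 3 libraries labelled cardiac came from an optimized cardiac differentiation at day 4. All derive from mouse iPSCs (induced pluripotent stem cells, made by reprogramming body cells to an embryonic state), and the labels give no strain, clone, age or genetic change for any group. The other 6 arrays are undifferentiated iPSCs at day 0, the study's control, and spontaneously differentiated cells at day 4, with 3 each. They serve here as reference levels and share in the estimate of the spread. Total RNA was measured on 1-colour Affymetrix arrays, and values are log2 signals after robust multi-array averaging (RMA). A difference of 1 on this scale is a doubling of signal. For each of 19938 genes the probe set of highest mean over the 12 arrays stands for the gene.

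Kdr encodes FLK1, a tyrosine kinase that binds VEGF, the vascular growth factor. Pdgfra encodes PDGFRα, a tyrosine kinase that binds PDGF. Cells that carry both receptors arise in the early mesoderm and include precursors of heart muscle, vessel and smooth muscle. A day 4 culture can also hold pluripotent cells, primitive streak cells, endoderm and yolk sac lineages, so sorting for both receptors is a way to take mesoderm out of a mixture. The labels name sorting for 1 group alone, so passage through the cytometer and the choice of cells cannot be told apart.

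The RNA of the gate did not divide the libraries as their labels do. Kdr (probe set 10530692) measured 10.23 in sorted CPC replicate 1 but 6.25 and 6.03 in sorted CPC replicates 2 and 3, where day 0 cells had 5.5, 5.54 and 5.78. In cardiac replicates 1, 2 and 3 it measured 5.42, 10.81 and 9.01. High and low arrays were thus present in each group, and the Kdr difference of sorted minus cardiac was -0.91 with a 95% confidence interval from -3.44 to 1.63 (adjusted p = 0.691). The SDs of Kdr were 2.74 in the cardiac and 2.36 in the sorted group, against 0.15 at day 0 and 0.44 in spontaneous cells. The fit pools all of these, so the interval is too narrow for the groups compared. Pdgfra measured 11.13 in sorted CPC replicate 1, above every cardiac array at 9.42, 10.26 and 9.60, and 8.47 and 8.29 in sorted CPC replicates 2 and 3, below every cardiac array. Its difference was -0.46 with an interval from -1.65 to 0.73 (adjusted p = 0.663). Without sorted CPC replicates 2 and 3 both signs turned, to 1.82 for Kdr and 1.37 for Pdgfra. That turn follows from the choice of arrays, since those left out were low in both genes. Arrays measure RNA and not surface protein, so these values do not show which receptors the sorted cells carried. Whether libraries were exchanged between the groups cannot be told from these files, and an exchange would alter every difference of sorted minus cardiac given here. The libraries are called by their labels. The main lists and genes are also given without the arrays of low Kdr, which are cardiac replicate 1 and sorted CPC replicates 2 and 3.

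Lpar4, the lysophosphatidic acid receptor gene of the series title, overlapped between the groups. It measured 7.31, 9.15 and 8.65 in cardiac replicates 1 to 3 and 8.61, 9.12 and 7.83 in the libraries labelled sorted. The difference was 0.15 with an interval from -0.76 to 1.05 (adjusted p = 0.865). It was -0.38 without cardiac replicate 1 and -0.15 without sorted CPC replicate 2.

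Across genes, the likeness of arrays within a group overlapped that between the groups. Pairwise correlations over 19938 genes ran from 0.9656 to 0.9797 within the sorted group, from 0.973 to 0.9876 within the cardiac group, and from 0.9595 to 0.9921 between them. The highest value joined cardiac replicate 3 and sorted CPC replicate 2. An SD above 1 between the arrays of a group was found for 230 genes in the sorted group and 115 in the cardiac group, against 7 at day 0 and 14 in spontaneous cells. Whether replicates were separate cultures is not in the labels, so p-values refer to the spread of these arrays alone, and that spread may be technical.

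At an adjusted p under 0.05 and a difference of at least 1, limma called 0 genes higher (0%) and 0 lower (0%) in the libraries labelled sorted. At an unadjusted p under 0.05 there were 3135 genes, or 1338 when only the 6 compared arrays were fitted. The lowest adjusted p of the main fit was 0.117, for Fos. The median difference of all genes was 0.03. Since nothing passed, the groups are described by whether their arrays overlap. All 3 sorted arrays lay above all 3 cardiac arrays for 1554 genes (7.79%) and below them for 1056 genes (5.3%). With a difference of at least 1 as well, 7 genes were above (0.0351%) and 43 below (0.216%). The 7 genes above were Fos, Fosb, Egr1, Dusp1, Jun, Lefty2 and Dok2, of which the first 5 are immediate early genes. The genes below with the largest differences were led by Apob, Ttr, Spink1 and Rbp4, which are made by visceral endoderm and liver.

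The small differences varied with signal. Among the 9969 dimmest genes, by mean signal over 12 arrays, 14.1% lay above and 2.07% below, with a median difference of 0.15. Among the 9969 brightest 1.46% lay above and 8.53% below, with a median of -0.11. Of the genes that did not overlap, 59.5% were above on the deposited scale, 72.1% after centring arrays on their medians, 57.1% after repeated quantile normalization and 48.9% after cyclic loess. The division by signal narrowed under the last 2 of these scalings. In the dimmer set 1408 genes lay above and 206 below on the deposited scale, 874 and 511 after repeated quantile normalization, and 710 and 623 after cyclic loess. In the brighter set the counts were 146 above and 850 below, then 451 and 483, and then 396 and 534. The SD of signal over genes was 1.95, 2.04 and 1.91 in cardiac replicates 1 to 3 and 1.85, 1.96 and 1.82 in sorted CPC replicates 1 to 3. The part of this narrower range in the counts above was not tested, and on the deposited scale a dim gene slightly above or a bright gene slightly below is read here as background. No background level was measured, so signals near or below the array medians, which ran from 6.09 to 6.26, are not shown to exceed it.

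**Figure D1:**
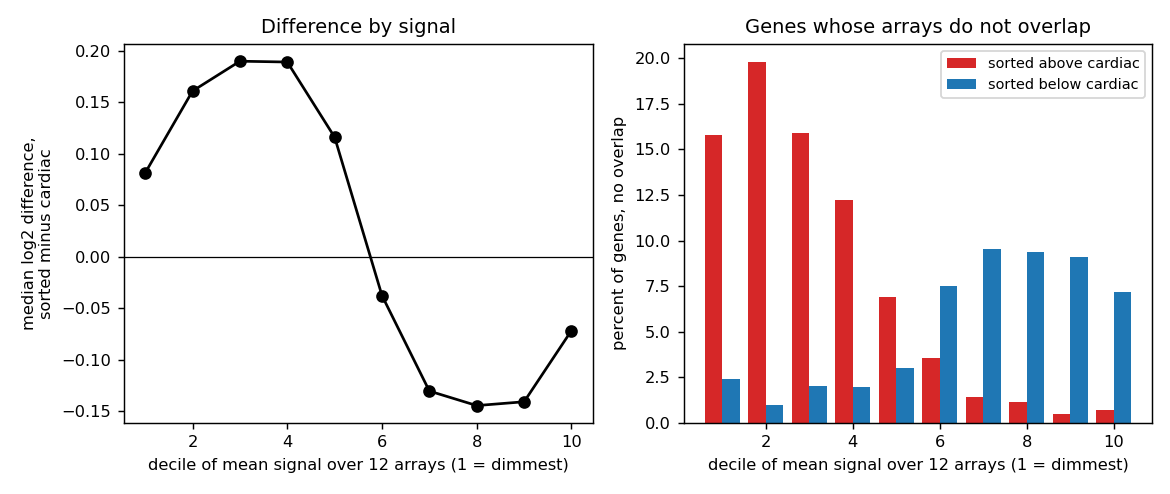
Left, the median log2 difference, sorted minus cardiac, of genes in each decile of mean signal (1 is the dimmest); right, the percentage of genes in each decile whose 3 sorted arrays lay all above (red) or all below (blue) the 3 cardiac arrays. The median runs from 0.19 in decile 3 to -0.14 in decile 8, and the share above is 19.8% in decile 2 and 0.502% in decile 9.

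Among genes above the cardiac culture, the largest differences were those of immediate early genes. These are transcribed within minutes of a stimulus such as serum, growth factors or physical stress, without new protein synthesis, and many encode transcription factors. The list used here joins immediate early genes with genes of dissociation stress. Of its 27 measured members, 6 lay above in all sorted arrays (22.2%, against 7.79% of all genes) and 0 below, 0 were called, and 23 had a positive difference. The list's median difference was 0.25, against 0.03 for all genes. Of the 27 members, 24 lie in the brighter set, where 1.46% of genes lay above and the median was -0.11. The share above was higher in the erythroid list (44.4%), whose genes are mostly dim.

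The AP-1 genes Fos, Fosb and Jun encode subunits that pair to form a transcription factor. Fos (probe set 10397346) measured 6.88, 6.93 and 7.05 in cardiac replicates 1 to 3 and 8.30, 8.84 and 8.41 in sorted CPC replicates 1 to 3. Every sorted array exceeded every cardiac array, and the gap between the groups was wider than the spread in either. The means were 6.95 ± 0.09 and 8.52 ± 0.28 (SD, n = 3 each). The difference was 1.56 ± 0.21 (SE, 2.96-fold, adjusted p = 0.117). Fosb measured 6.33, 6.27 and 6.50 against 7.90, 8.59 and 7.10, a difference of 1.5 ± 0.28 (SE, adjusted p = 0.253). Its lowest sorted array was replicate 3, and without that array Fosb was the 1 gene called in the comparison (1.88, adjusted p = 0.0265). Jun measured 8.21, 8.31 and 8.09 against 9.01, 9.43 and 9.25, a difference of 1.03 ± 0.19 (SE, adjusted p = 0.253). Sorted CPC replicate 1, whose gate RNA was high, was the lowest sorted array for Fos and Jun and the middle one for Fosb.

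Egr1 and Egr2 encode zinc finger factors of the same early response. Egr1 measured 6.54, 7.27 and 6.85 in the cardiac replicates and 8.09, 8.38 and 8.47 in the sorted ones (1.43 ± 0.21 SE, adjusted p = 0.134). Egr2, named after its values were seen, was dimmer, at 5.69, 5.80 and 5.95 against 6.41, 6.24 and 6.46 (0.56 ± 0.12 SE, adjusted p = 0.261). The sorted arrays of both genes lay close together, and the groups did not overlap. Dusp1, which encodes a phosphatase that switches off MAP kinases, measured 9.29, 8.80 and 8.72 against 9.41, 9.65 and 10.95 (1.07 ± 0.32 SE, adjusted p = 0.265). Here replicate 3 stood far above the rest, and the difference was 0.59 without it.

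Outside the list, Srf and Dusp5 had the same order of arrays. Srf encodes serum response factor, which binds the CArG box in promoters of many immediate early and muscle genes, and Dusp5 encodes a nuclear phosphatase of ERK. Srf measured 7.76, 8.27 and 7.85 in the cardiac replicates and 8.43, 8.73 and 8.35 in the sorted ones (0.54 ± 0.16 SE, adjusted p = 0.265). Dusp5, named after its values were seen, measured 7.37, 7.81 and 7.59 against 8.30, 8.05 and 8.18 (0.59 ± 0.14 SE, adjusted p = 0.265). Neither gene overlapped between the groups.

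The day 0 cells were also high in these genes. Fos measured 9.34, 9.28 and 8.67 in undifferentiated iPSCs and 6.37, 7.03 and 6.80 in spontaneous cells. Its sorted mean of 8.52 lay between the cardiac mean of 6.95 and the day 0 mean of 9.10. The sorted and day 0 arrays of Fos overlapped. Egr1 at day 0 was 8.83, 8.14 and 8.30, which overlapped the sorted arrays. The mean of the 27 genes was 8.48 to 8.63 at day 0, 7.69 to 7.79 in the cardiac replicates and 7.74, 8.17 and 8.58 in sorted CPC replicates 1, 2 and 3. By this mean sorted CPC replicate 1 lay within the cardiac range and replicate 3 reached day 0.

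**Figure D2:**
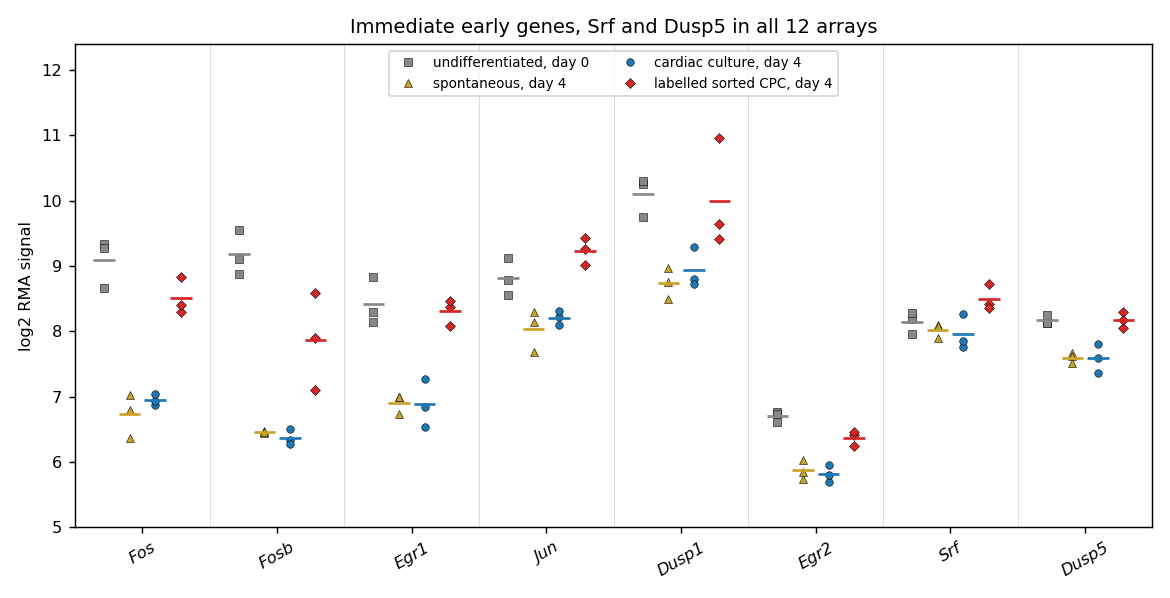
Log2 RMA signal of 6 immediate early genes, Srf and Dusp5 on all 12 arrays, 1 point per array and a bar at each group's mean. The 3 sorted arrays (red) lie above the 3 cardiac arrays (blue) for all genes drawn, with Fos at 8.30 to 8.84 against 6.88 to 7.05, and the day 0 mean (grey) is the highest for Fos, Fosb, Egr1, Dusp1 and Egr2.

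The rest of the list was mixed. Ccn1, a secreted matrix protein gene, had a difference of 1.09 (adjusted p = 0.33), but measured 8.93, 10.66 and 11.89 in the sorted replicates against 8.82, 9.63 and 9.76. Its groups overlapped and sorted CPC replicate 3 was the highest array. Zfp36, which encodes a protein that destabilises AU-rich messenger RNA, was named after its values were seen and measured 7.5, 8.15 and 9.12 against 7.55, 7.52 and 7.78 (0.64, adjusted p = 0.32). Ier3, named after its values were seen, went the other way, at 8.71, 6.66 and 7.66 in the cardiac replicates and 6.30, 6.39 and 7.49 in the sorted ones (-0.95, adjusted p = 0.306). Without sorted CPC replicates 2 and 3 the list's median was -0.05, with 8 members above and 10 below the cardiac arrays, where 37.4% and 25.6% of all genes lay. With cardiac replicate 1 left out too, the median was 0.03. Of the genes above, Fos then differed by 1.32, Egr1 by 1.03, Jun by 0.82, Dusp1 by 0.65 and Egr2 by 0.53. Without sorted CPC replicate 3 alone the median was 0.09. The 22.2% of members above was the same without cardiac replicate 1, against 11.2% of all genes. A higher level in every sorted array was therefore a property of 6 genes and not of the whole list, and AP-1 and Egr genes made up 5 of them.

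Promoters of some of these genes are shown because the CArG box and the cAMP response element (CRE) are the known elements of this response. Windows are the 250 bases before the transcript start in RefSeq annotation of GRCm38.p6, printed 5′ to 3′ in the direction of the gene, and capitals mark a CArG box or the CRE TGACGTCA. Both strands were searched, and the CRE reads the same on both. A CArG box was found in 1.47% and a CRE in 1.55% of 32851 such windows. Counted by gene, with a match in any of a gene's windows, the shares were 1.62% and 1.77% of 27025 genes. List members are counted by gene too. Of the 27 list members, 21 had a window, and a CArG box was in those of Egr2 and Zfp36 and a CRE in those of Dusp1, Btg2 and Ppp1r15a. Of the 6 members above in all sorted arrays 5 had a window, with a CArG box in 1 (Egr2) and a CRE in 1 (Dusp1), and the windows of Fos, Fosb and Jun held neither. Srf and Dusp5 lie outside the list and that count, and are shown for their CArG boxes. These are letter matches, which say nothing of binding in these cells. A search of 250 bases for exact letters also misses elements farther upstream and variant forms, so a window without a match does not show that a promoter lacks them.

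The Fos window (chr12:85473640-85473889, plus strand) held neither element in the exact form searched, so none of its letters are capitals. Egr2 has 5 windows, and the one shown was picked by its number of matches. That window (chr10:67537316-67537565, plus strand) held 1 CArG box, whose first base lies 72 bases before the start. The Srf window (chr17:46556163-46556412, minus strand) held 2 of them, starting 82 and 62 bases before the start, and the Dusp5 window (chr19:53528895-53529144, plus strand) held 2 that adjoin, from 82 and 72 bases. The Dusp1 window (chr17:26508473-26508722, minus strand) held 1 CRE, 143 bases before the start.
Fos: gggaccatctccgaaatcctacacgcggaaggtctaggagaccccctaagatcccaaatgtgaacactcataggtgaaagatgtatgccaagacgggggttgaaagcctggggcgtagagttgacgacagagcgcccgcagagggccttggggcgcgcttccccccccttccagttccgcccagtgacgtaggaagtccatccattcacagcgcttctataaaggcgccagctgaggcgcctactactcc
Egr2: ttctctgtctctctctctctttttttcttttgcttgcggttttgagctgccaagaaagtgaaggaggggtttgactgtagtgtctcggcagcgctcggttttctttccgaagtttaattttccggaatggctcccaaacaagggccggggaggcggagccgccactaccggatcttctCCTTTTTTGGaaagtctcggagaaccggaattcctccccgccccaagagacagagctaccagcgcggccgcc
Srf: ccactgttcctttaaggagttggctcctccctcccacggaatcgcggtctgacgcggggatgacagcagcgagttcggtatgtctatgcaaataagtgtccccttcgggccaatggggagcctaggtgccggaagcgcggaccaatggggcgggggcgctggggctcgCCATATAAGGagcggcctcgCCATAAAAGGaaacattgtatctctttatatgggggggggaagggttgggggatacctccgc
Dusp5: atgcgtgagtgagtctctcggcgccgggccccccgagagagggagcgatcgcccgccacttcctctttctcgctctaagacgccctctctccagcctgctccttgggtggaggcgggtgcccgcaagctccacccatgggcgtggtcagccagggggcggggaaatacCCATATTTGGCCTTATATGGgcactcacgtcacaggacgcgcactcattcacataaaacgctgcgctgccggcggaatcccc
Dusp1: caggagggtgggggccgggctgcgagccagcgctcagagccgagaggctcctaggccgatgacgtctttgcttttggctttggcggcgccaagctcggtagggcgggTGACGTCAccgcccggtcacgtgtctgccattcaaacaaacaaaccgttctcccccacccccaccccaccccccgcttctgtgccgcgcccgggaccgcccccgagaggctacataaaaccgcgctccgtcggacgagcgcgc

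Among the other genes whose sorted arrays all lay above the cardiac ones, those with the largest differences included a signalling inhibitor, a vasoactive peptide and an adhesion receptor. Lefty2 encodes a secreted inhibitor of Nodal and measured 7.71, 8.16 and 8.14 in the cardiac replicates and 9.58, 9.20 and 8.28 in the sorted ones (1.02 ± 0.35 SE, adjusted p = 0.273). Sorted CPC replicate 3 exceeded the highest cardiac array only slightly. Amotl2, an angiomotin gene of the Hippo pathway, measured 8.39, 8.53 and 8.27 against 8.55, 9.21 and 10.07 (0.88, adjusted p = 0.272). Edn1, the gene of the vasoactive peptide endothelin 1, measured 5.64, 5.20 and 5.63 against 5.89, 6.09 and 6.96 (0.82, adjusted p = 0.269). In Amotl2 and Edn1, as in Dusp1, sorted CPC replicate 3 was the highest array. The adaptor gene Dok2 and the MAP kinase phosphatase gene Dusp14 rested on that array too, at 8.51 and 9.06 there against 6.43 to 6.59 and 7.28 to 7.37 in the other sorted arrays. Adgrl2, an adhesion receptor gene, was even across the sorted arrays at 10.76, 10.52 and 10.89, against 9.16, 10.33 and 10.27 (0.80, adjusted p = 0.28). Without the arrays of low Kdr the differences were 1.43 for Lefty2, 0.15 for Amotl2, 0.48 for Edn1 and 0.46 for Adgrl2.

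The genes below the cardiac culture were led by visceral endoderm, the epithelium around the early embryo that forms the yolk sac lining and, like liver, secretes lipoproteins and carrier proteins and takes up proteins by endocytosis. Of 20 measured members of that list (22 listed), 10 lay below in all sorted arrays (50%, against 5.3% of all genes), 0 lay above and 0 were called. The list's median difference was -1.08, and 18 members had a negative difference. The array means of the list were 8.87, 7.44 and 7.92 in cardiac replicates 1 to 3 and 6.77, 7.37 and 6.93 in the sorted replicates. In bulk RNA, fewer cells of a type and less RNA per cell cannot be told apart.

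The secreted carriers had the largest differences. Apob (probe set 10394394), the structural protein of lipoprotein particles, measured 10.61, 8.43 and 8.75 in the cardiac replicates and 6.37, 7.48 and 5.85 in the sorted ones. The groups did not overlap, cardiac replicate 1 was the highest array by a wide gap, and the difference was -2.70 ± 0.59 (SE, 6.49-fold lower, adjusted p = 0.261). Mttp, which loads lipid onto that protein, measured 10.04, 8.10 and 8.90 against 7.32, 7.87 and 7.23 (-1.54 ± 0.39 SE, adjusted p = 0.265). Ttr, the carrier of thyroid hormone and of the retinol-binding protein, measured 11.34, 9.56 and 10.04 against 7.74, 9.48 and 6.72 (-2.33 ± 0.59 SE, adjusted p = 0.265). Sorted CPC replicate 2 was close to cardiac replicate 2 in Ttr. Rbp4, the retinol-binding protein gene, measured 9.37, 6.60 and 7.56 against 5.87, 6.59 and 6.09 (-1.66 ± 0.49 SE, adjusted p = 0.265), and the same pair of arrays nearly touched. Without cardiac replicate 1 the Rbp4 difference was -0.90.

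Other members gave the same order of groups. Spink1, a trypsin inhibitor gene, measured 7.96, 6.88 and 6.92 in the cardiac replicates and 5.49, 6.2 and 5.07 in the sorted ones (-1.67 ± 0.30 SE, adjusted p = 0.253). Ctsh, a lysosomal protease gene, measured 10.70, 8.96 and 9.76 against 7.29, 8.85 and 8.59 (-1.57 ± 0.46 SE, adjusted p = 0.265). Afp, the fetal plasma protein gene that marks this tissue, was named after its values were seen. It measured 7.24, 6.26 and 6.58 against 5.47, 5.56 and 5.70, where day 0 had 5.32 to 5.59. Apom, an apolipoprotein gene also named after its values were seen, measured 7.72, 5.54 and 5.92 against 5.10, 5.10 and 4.99, where day 0 had 5.07 to 5.12. In both genes the cardiac arrays lay above day 0 and the sorted arrays at or near it.

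Further members, named after their values were seen, overlapped between the groups. Apoa1, the main protein of high-density lipoprotein, measured 10.21, 8.0 and 8.85 in the cardiac replicates and 7.34, 8.57 and 6.58 in the sorted ones (-1.52, adjusted p = 0.276). Cubn, which encodes an endocytic receptor of this epithelium, measured 11.67, 9.79 and 10.36 against 8.89, 9.92 and 8.94 (-1.36, adjusted p = 0.292). Hnf4a, the nuclear receptor that drives many of these genes in liver, measured 9.34, 7.41 and 7.76 against 6.98, 7.48 and 6.94 (-1.04, adjusted p = 0.281). In all 3 genes the overlap came from sorted CPC replicate 2 lying above cardiac replicate 2. Amn, the partner of Cubn in the receptor, did not overlap, at 9.72, 8.09 and 8.56 against 7.54, 7.85 and 7.97 (-1.0, adjusted p = 0.272).

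**Figure D3:**
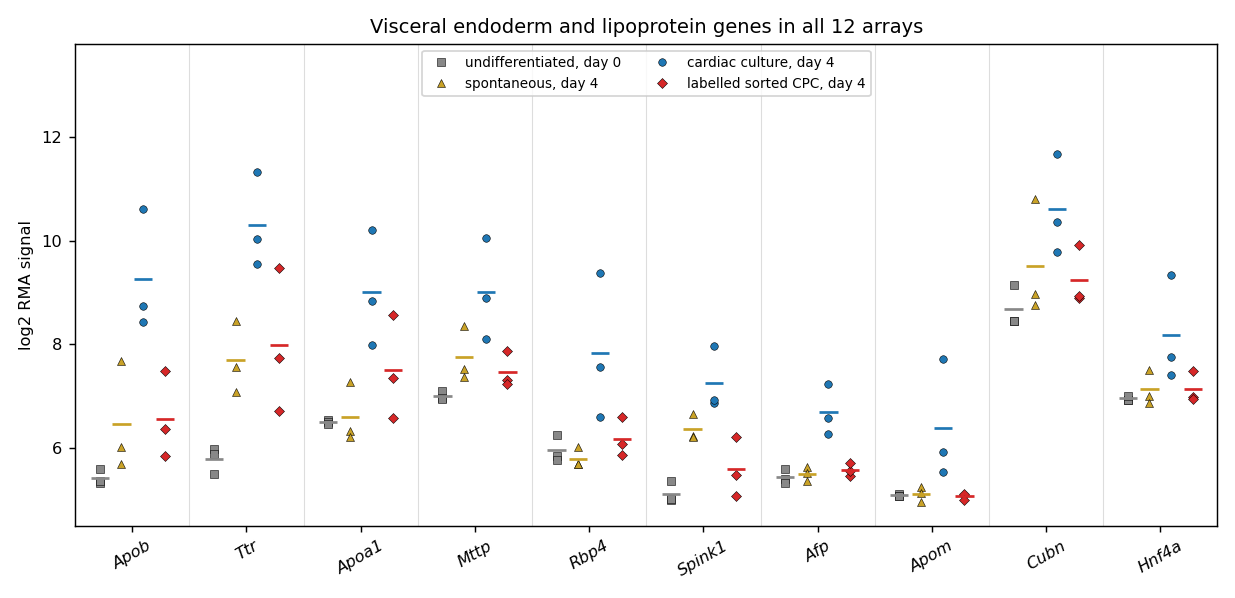
Log2 RMA signal of 10 genes of visceral endoderm and lipoprotein assembly on all 12 arrays, 1 point per array and a bar at each group's mean. Cardiac arrays (blue) are the highest group for each gene, by their mean, with replicate 1 well above the other cardiac arrays. The sorted arrays (red) reach from 5.85 to 7.48 for Apob, against 8.43 to 10.61 in cardiac arrays.

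Cardiac replicate 1 weighed on this list. It was the highest of the 6 arrays for 16 of the 20 members. The list's median was -0.66 without it and -1.27 without sorted CPC replicates 2 and 3. Without cardiac replicate 1 the same share of members, 50%, lay below in all sorted arrays, against 8.37% of all genes, and without sorted CPC replicates 2 and 3 it was 75% against 25.6%. Without all 3 of these arrays the median was -0.89, with 75% of members below against 31.3% of all genes. The count of the 20 members below was 10 after centring on array medians, 6 after repeated quantile normalization and 7 after cyclic loess. Of all genes 4%, 4.99% and 5.8% lay below under these scalings. The mean of the list was 6.56 to 6.66 at day 0 and 6.78 to 7.46 in spontaneous cells, a range that held the sorted means of 6.93 and 7.37, with sorted CPC replicate 1 at 6.77.

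The endoderm factor Sox17 and its relative Sox7 also lay below. Sox17, which specifies endoderm and later endothelium, measured 8.25, 8.35 and 8.42 in the cardiac replicates and 7.45, 7.57 and 8.18 in the sorted ones (-0.61 ± 0.18 SE, adjusted p = 0.265). Its relative Sox7 measured 8.38, 7.73 and 8.05 against 7.06, 7.27 and 7.39 (-0.82 ± 0.20 SE, adjusted p = 0.265). The cardiac arrays of both genes lay above all sorted arrays. Sox7 was listed with endothelial and blood progenitor genes. Of those 26 genes 3 lay above and 3 below (11.5% each), against 7.79% and 5.3% of all genes. Of 17 definitive endoderm genes, 2 lay below (11.8%), Sox17 and the carboxypeptidase gene Cpm, against 5.3% of all genes and 8.53% of the brighter set, in which 13 of the 17 lie. That share is near the background, and the median was -0.29, or -0.38 without the arrays of low Kdr. Sox17 then differed by -0.93 and Sox7 by -0.83. Cpm measured 8.83, 7.42 and 7.52 against 6.09, 6.89 and 7.39, so that sorted CPC replicate 3 nearly reached cardiac replicate 2.

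Several genes below the cardiac culture belong to no list of endoderm. Morc4, a nuclear ATPase gene, measured 9.02, 8.64 and 8.0 in the cardiac replicates and 6.58, 7.07 and 7.07 in the sorted ones (-1.64 ± 0.34 SE, adjusted p = 0.253). Spontaneous cells had 8.25 to 9.77 and day 0 cells 6.23 to 6.72, so Morc4 was high in both unsorted day 4 groups. H1f2, a replication-dependent linker histone gene named after its values were seen, measured 8.11, 8.10 and 7.90 against 6.98, 6.98 and 6.81 (-1.11 ± 0.18 SE, adjusted p = 0.181). Its arrays were close together within each group. The core histone gene H3c15 measured 6.62, 6.56 and 6.01 against 4.02, 5.05 and 5.47 (-1.55 ± 0.37 SE, adjusted p = 0.26). Histone genes of this family are near-identical copies, so their probes may share signal. Nid1, a basement membrane protein gene, measured 8.90, 7.96 and 7.93 against 6.89, 7.53 and 7.07 (-1.10 ± 0.24 SE, adjusted p = 0.261). The water channel gene Aqp8 (-1.54), the quinone reductase gene Nqo1 (-1.48), the glucuronosyltransferase gene Ugt2b34 (-1.48) and the serine protease gene Prss12 (-1.45) lay below in all sorted arrays as well, with adjusted p-values of 0.26 to 0.27. Without the arrays of low Kdr, Morc4 differed by -1.73, H1f2 by -1.02, H3c15 by -2.26 and Nid1 by -1.06.

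Some hypoxia and glycolysis genes lay below the cardiac culture. Hypoxia response genes are targets of the HIF factors, which accumulate at low oxygen, and many of them encode glycolytic enzymes. Of 25 measured genes, 5 lay below (20%, against 5.3% of all genes), 1 lay above, 0 were called, and 23 had a negative difference, with a median of -0.39. Ero1a, an oxidase of disulfide formation in the endoplasmic reticulum, measured 11.40, 10.13 and 10.77 in the cardiac replicates and 10.07, 9.67 and 9.5 in the sorted ones (-1.02 ± 0.35 SE, adjusted p = 0.276). P4ha1, a collagen prolyl hydroxylase gene named after its values were seen, measured 10.60, 9.73 and 9.96 against 9.23, 9.29 and 9.27 (-0.83 ± 0.26 SE, adjusted p = 0.266). Neither gene overlapped between the groups, and P4ha1 was even across the sorted arrays. Bnip3, a mitophagy gene, had the largest difference (-1.26, adjusted p = 0.34), but measured 10.09, 9.81 and 7.58 in the sorted replicates against 11.12, 9.84 and 10.30. Its difference thus came mainly from sorted CPC replicate 3. Cardiac replicate 1 was the highest array for 21 of the 25 genes, and the median was -0.24 without it. Without sorted CPC replicates 2 and 3 as well it was -0.13, with 44% of members below against 31.3% of all genes. Ero1a then differed by -0.38 and P4ha1 by -0.61. Of these 25 genes, 23 lay above the median signal of all genes, where 8.53% of genes lay below, and the part of that shift was not tested.

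**Figure D4:**
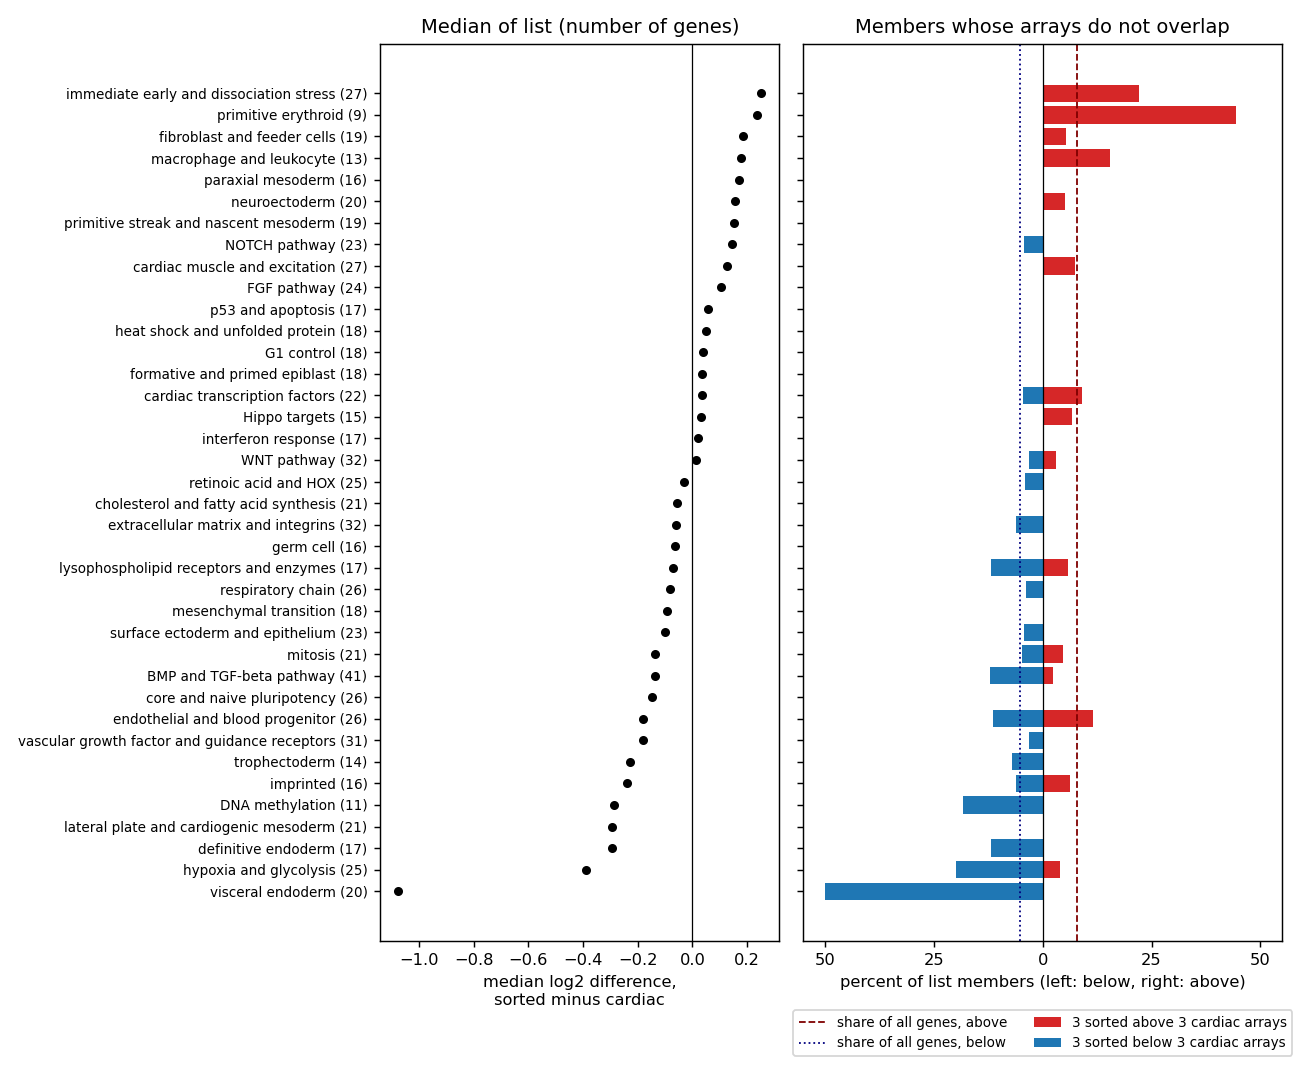
Left, the median log2 difference, sorted minus cardiac, of each gene list with at least 9 measured genes (number in brackets); right, the percentage of its members whose 3 sorted arrays lay all above (red bars) or all below (blue bars) the 3 cardiac arrays, with lines at 7.79% and 5.3%, the shares of all genes. Visceral endoderm has the lowest median, -1.08, and 50% of members below. The list of immediate early and dissociation stress genes has the highest median, 0.25.

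Signalling lists differed in how many genes lay apart. Of 41 BMP and TGF-beta genes, 1 lay above (2.44%, against 7.79% of all genes), Lefty2. The 5 below (12.2%, against 5.3% of all genes and 8.53% of the brighter set, in which 35 of the 41 lie) were the ligand gene Bmp2, the receptor genes Acvr1, Acvr1b and Tgfbr2, and Smad2, which encodes a signal transducer. Of these, Bmp2 and Lefty2 were in the rule for named genes and the others are named to complete the count. Bmp2 measured 7.10, 8.23 and 7.35 in the cardiac replicates and 6.97, 6.60 and 6.07 in the sorted ones (-1.01 ± 0.32 SE, adjusted p = 0.269). Bmp4, the ligand that induces mesoderm, overlapped, at 7.16, 9.44 and 8.01 against 7.37, 7.29 and 7.02 (-0.98, adjusted p = 0.34). Rdh10, which makes retinaldehyde for retinoic acid synthesis, measured 9.64, 8.36 and 8.58 against 7.85, 8.29 and 7.86 (-0.86 ± 0.27 SE, adjusted p = 0.265). Bmp2 and Rdh10 did not overlap, although sorted and cardiac arrays nearly met in both. Without the arrays of low Kdr, Bmp2 differed by -0.82 and Rdh10 by -0.63, and the BMP list's median was -0.08 against -0.14 with all arrays. In the FGF list 0 of 24 genes and in the p53 list 0 of 17 genes lay apart in either direction, where 7.79% of all genes lay above and 5.3% below.

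Mesoderm genes overlapped between the groups. In the lists of primitive streak (19 genes), lateral plate and cardiogenic mesoderm (21 genes) and paraxial mesoderm (16 genes), 0 genes lay apart in either direction, against 7.79% of all genes above and 5.3% below. The medians were 0.15, -0.29 and 0.17, and without the arrays of low Kdr 0.62, 0.05 and 0.31. Mesp1, the earliest factor of cardiac mesoderm, was named after its values were seen and measured 5.53, 8.36 and 6.96 in the cardiac replicates and 8.54, 6.06 and 5.99 in the sorted ones. Like Kdr, it was high in sorted CPC replicate 1 and cardiac replicate 2 and low in cardiac replicate 1. Tbx20, a T-box factor of the heart, measured 6.83, 8.68 and 6.98 against 7.0, 5.45 and 6.61 (-1.15, adjusted p = 0.317). Gata4, a GATA-binding factor needed in heart and gut development, measured 9.88, 9.79 and 9.47 against 9.74, 8.66 and 8.65 (-0.70, adjusted p = 0.285). For both genes sorted CPC replicates 2 and 3 were the lowest arrays. Day 0 cells had 5.0 to 5.40 for Tbx20 and 8.22 to 8.83 for Gata4, below every cardiac array.

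Heart muscle genes were near the day 0 level as a list but not gene by gene. The mean of the 27 heart muscle and excitation genes was 6.39 to 6.42 at day 0, 6.27 to 6.44 in the cardiac and 6.25 to 6.69 in the sorted replicates. Tpm1, a tropomyosin gene, measured 8.86, 10.03 and 9.84 in the cardiac replicates and 8.93, 9.71 and 11.69 in the sorted ones, all above the 8.25 to 8.45 of day 0. Nkx2-5, an early heart factor, measured 7.51, 7.10 and 7.42 in the cardiac replicates, 7.63, 7.27 and 7.84 in the sorted ones and 7.43 to 7.63 at day 0. Tnnt2, cardiac troponin T, measured 6.41, 6.27 and 6.62 against 6.64, 6.25 and 6.66, where day 0 had 6.76 to 6.87. Both were named after their values were seen. Tnnt2 was below the day 0 range on all 6 arrays, and Nkx2-5 exceeded it on sorted CPC replicate 3 alone. Of the 27 genes, 2 lay above (7.41%, against 7.79% of all genes). The leukocyte list had 2 of 13 members above (15.4%) and the erythroid list 4 of 9 (44.4%), against 14.1% of the dimmer set of all genes, with medians of 0.18 and 0.23. Of these members 1 of the 13 and 2 of the 9 lie in the brighter set. The leukocyte antigen gene Ptprc, chosen after its values were seen, was at 4.63 to 4.88 in cardiac and 4.82 to 5.01 in sorted arrays. Of 19 fibroblast and feeder genes 15 had a positive difference, 1 lay above (5.26%) and 0 below, and the median was 0.19. Acta2, the smooth muscle actin gene, measured 6.32, 7.31 and 7.12 in the cardiac replicates and 6.99, 7.11 and 9.41 in the sorted ones (0.92, adjusted p = 0.385). Its groups overlapped, and only sorted CPC replicate 3 lay above the cardiac range. The fibroblast marker Dcn, 1 of the 4 members with a negative difference, a matrix proteoglycan gene, measured 5.78 to 6.33 in cardiac and 5.60 to 5.84 in sorted arrays, below the 6.95 to 8.39 of day 0.

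The genes with the largest spread divided the arrays within the groups. Mixl1, a homeobox gene of the primitive streak, measured 6.22, 11.42 and 10.48 in cardiac replicates 1 to 3 and 12.11, 10.35 and 7.52 in sorted CPC replicates 1 to 3. Cdh2, the N-cadherin gene of mesoderm, measured 8.09, 10.60 and 9.72 against 11.10, 9.06 and 6.24. Frzb, a secreted WNT inhibitor gene, measured 6.47, 8.89 and 8.37 against 10.60, 8.32 and 5.56. In all 3 genes sorted CPC replicate 1 was the highest of the 6 arrays, and cardiac replicate 1 and sorted CPC replicate 3 were the lowest. The SDs of Mixl1 were 2.77 in the cardiac and 2.31 in the sorted group, and its difference of 0.62 had an interval from -1.89 to 3.14. That interval also pools the SDs of 0.12 at day 0 and 0.25 in spontaneous cells, and is too narrow for the groups compared.

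Another set was high in sorted CPC replicate 3 alone among the 6 arrays. Thbs1, the thrombospondin 1 gene, measured 6.48, 7.38 and 11.31 in the sorted replicates and 6.29, 6.85 and 7.78 in the cardiac ones. Sfn, the gene of the epithelial 14-3-3 protein sigma, measured 6.88, 8.18 and 11.64 against 7.36, 8.27 and 7.95. Mme, the membrane peptidase neprilysin, measured 5.31, 7.55 and 10.26 against 7.13, 7.42 and 7.74. That array also had the highest values of Ccn1, Dusp1 and Amotl2, given above. Without sorted CPC replicate 3 the differences of Thbs1, Sfn and Mme were -0.04, -0.33 and -1.0.

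**Figure D5:**
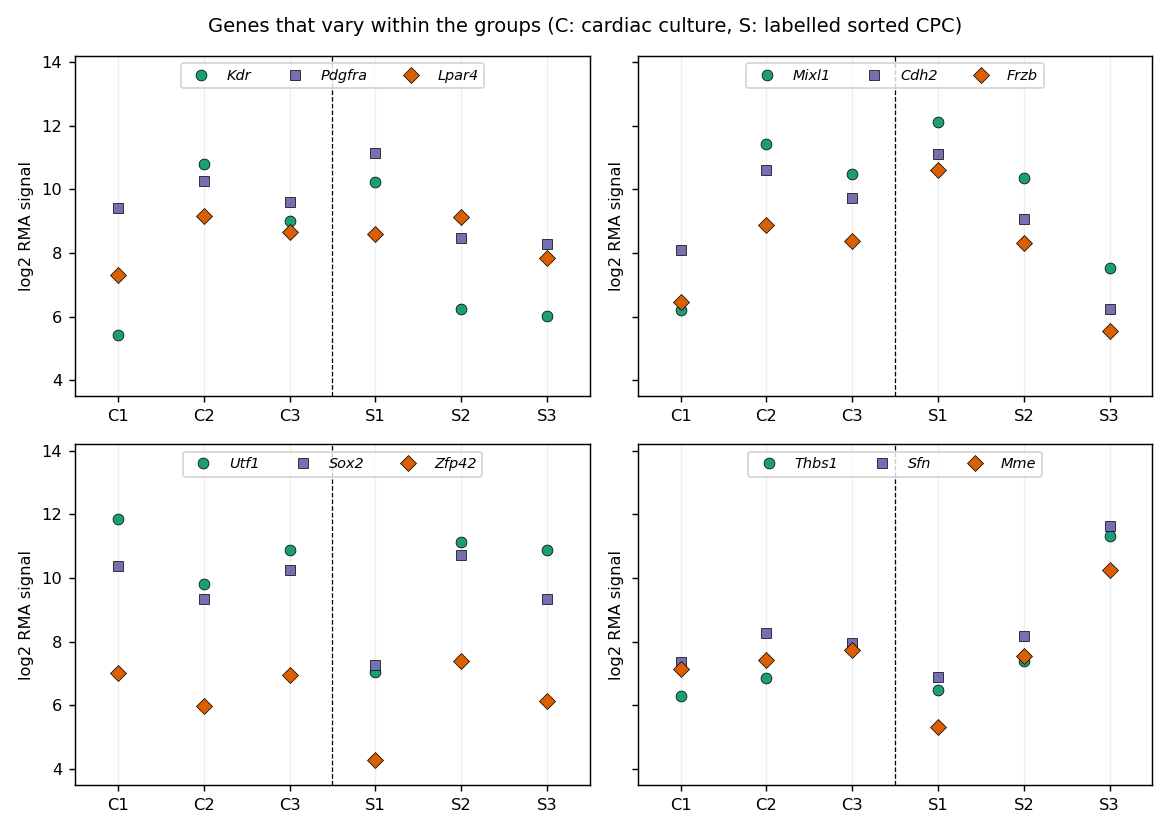
Log2 RMA signal of 12 genes on the 3 cardiac arrays (C1 to C3) and the 3 arrays labelled sorted CPC (S1 to S3), in 4 panels of 3 genes each, with a dashed line between the groups. Kdr is high in S1, C2 and C3; Mixl1, Cdh2 and Frzb are lowest in C1 or S3; Utf1, Sox2 and Zfp42 are lowest in S1; Thbs1, Sfn and Mme are highest in S3.

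Sorted CPC replicate 1, the sorted array with high Kdr and Pdgfra, was low in pluripotency and epithelial genes. Utf1, a chromatin factor of pluripotent cells, measured 7.05 there, 11.15 and 10.89 in the other sorted replicates, and 11.87, 9.82 and 10.87 in the cardiac ones. Sox2, a core pluripotency factor, measured 7.26 there, 10.73 and 9.36 in the other sorted replicates, and 10.37, 9.33 and 10.24 in the cardiac ones. Zfp42 and Fbxo15, markers of naive stem cells named after their values were seen, measured 4.29 and 4.69 there against 5.99 to 7.02 and 6.38 to 7.88 in the cardiac replicates. For these 4 genes this array was the lowest of all 12. Pou5f1 and Nanog, the other core factors, were named after their values were seen and did not share this. They measured 10.47 and 9.80 in that array against 10.60 to 11.00 and 10.16 to 10.49 in the cardiac replicates.

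A fit without sorted CPC replicates 2 and 3 set this array against the cardiac cultures, on the assumption that a lone array varies like the other groups. The 3 sorted arrays did not meet that assumption. An SD above 1 was found for 230 genes among them, against 115 in the cardiac group, 7 at day 0 and 14 in spontaneous cells. The fit leaves out this spread between sorted arrays, so its calls are not a test of the sorted group. It called 4 genes higher (0.0201%) and 94 lower (0.471%). Of 26 pluripotency genes 4 were called lower (15.4%) and of 23 epithelial genes 3 (13%). Utf1 differed by -3.80, Sox2 by -2.72, the thyrotropin-releasing hormone gene Trh by -2.70 and the keratin gene Krt18 by -2.28. The vesicle transport gene Rab25 of epithelia differed by -1.39. Fosb differed by 1.54. With cardiac replicate 1 left out too, 9 genes were called higher (0.0451%) and 106 lower (0.532%), and 76 of the genes were called in both fits, 77.6% of the first and 66.1% of the second. These calls compare 1 library with the cultures and have no replicate of their own, and the array was chosen by the RNA of its gate.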

How the data were processed

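RNA was made into biotinylated cDNA for Affymetrix gene arrays, per the labels' protocols. The deposited values are log2 signals, 1 column per array. Per the submitters' processing notes, the authors ran RMA, and the tool was Affymetrix Expression Console 1.3.1. RMA equalises array distributions, which can move dim and bright genes in opposite ways. The log base was taken from the values, and the genome build of the probes was not given in these sources. Of 35557 probe sets, 21789 had 1 gene symbol in the platform annotation. The other 13768 were tested separately (0 called, 1697 with an unadjusted p under 0.05). Of a gene's probe sets the one of highest mean was kept, which left 19938 genes.

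A mean per group was fitted over all 12 arrays in limma 3.58.1 (R 4.3.3) with an intensity trend. The contrast sorted CPC minus cardiac was tested two-sided with Benjamini-Hochberg adjustment over 19938 genes. A call needed an absolute log2 difference of at least 1 and an adjusted p under 0.05. SEs and intervals are those of this fit, and the script was tested on simulated data. They pool the spread of all groups. For genes that vary more in the sorted and cardiac groups than in the others, SEs, intervals and p-values are therefore too small. Precision is limited by the number of arrays. Alternatives covered the replicate block, the arrays fitted, the variance model, array weights, dim genes, probe sets, scaling, the call rule and arrays left out. Counts of list members without overlap were recomputed with arrays left out after seeing the data.

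The members and the 39 gene lists were chosen with earlier results of these data known. The rule for named genes took Kdr, Pdgfra and Lpar4, called genes, up to 15 genes without overlap in each direction, up to 4 per list by absolute difference and the 10 of largest SD in each group, without predicted loci, clones, small RNA and smell receptors. Genes outside it are named as such.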

Additional observations from a re-analysis of the deposited data

How the results depend on the processing

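The count of 0 genes called in each direction held under the replicate block (3349 genes with an unadjusted p under 0.05). The deviations of same-numbered arrays correlated at -0.38, 0.20 and 0.31, and those of other pairs between the groups at -0.465 to 0.3. Whether equal numbers mark a pairing is not in the labels and cannot be told from so few arrays. The count also held in the fit of 6 arrays, with 1338 genes at an unadjusted p under 0.05. Nor did it change without trend, with robust variance, array weights, no dim genes, mean probe sets, 3 other scalings, no minimum difference and treat. Leaving out 1 array gave 0 to 1 genes higher and 0 lower, the 1 gene without sorted CPC replicate 3. Without sorted CPC replicates 2 and 3 there were 4 higher and 94 lower, and without cardiac replicate 1 as well 9 and 106. The median of the visceral endoderm list stayed negative, from -1.44 to -0.66 with 1 array left out. That of the immediate early list ran from 0.09 to 0.53, and was -0.046 without sorted CPC replicates 2 and 3. Signs turned for genes that vary within groups, and the cause was not tested. With array weights Kdr was 0.51, Pdgfra 0.32, Pou5f1 -0.077, Nanog -0.16, Mesp1 0.83, Cdh2 0.37 and Mme -0.62. Without sorted CPC replicates 2 and 3 Kdr was 1.82, Pdgfra 1.37, Pou5f1 -0.31, Nanog -0.48, Gata4 0.032, Mesp1 1.59, Cdh2 1.63, Thbs1 -0.49, Zfp36 -0.12, Ccn1 -0.48, Sfn -0.99 and Mme -2.12. With cardiac replicate 1 left out too, Kdr was 0.32, Pdgfra 1.21, Lpar4 -0.29, Pou5f1 -0.20, Nanog -0.52, Gata4 0.12, Mesp1 0.88, Cdh2 0.94, Thbs1 -0.83, Bnip3 0.024, Ccn1 -0.77, Zfp36 -0.15, Sfn -1.24 and Mme -2.27. With any 1 array left out the ranges were Kdr -2.40 to 0.29, Pdgfra -1.38 to 0.040, Lpar4 -0.38 to 0.54, Pou5f1 -0.15 to 0.30, Nanog -0.23 to 0.39, Mesp1 -0.92 to 0.62, Mixl1 -0.95 to 1.86, Cdh2 -1.82 to 0.61, Utf1 -1.88 to 0.17, Thbs1 -0.039 to 2.38, Sfn -0.33 to 2.05, Mme -1.0 to 1.48, Frzb -0.96 to 1.55, Sox2 -1.67 to 0.064, Zfp42 -1.44 to 0.12, Fbxo15 -1.23 to 0.32, Krt18 -1.42 to 0.034 and Trh -1.73 to 0.15. Acta2 was not followed through the alternatives. The other genes named with a difference kept their sign in them. Signals near the array medians limit how low a level can be told from background.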
